A study of Mus musculus with 2 samples.

Results

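The collagen genes of mouse liver were described from 2 expression arrays, 1 for a pool of Yap+/- livers and 1 for a pool of Yap+/+ livers. The members were all genes whose symbol in the platform annotation has the form of a collagen chain, Col followed by a type number and a chain number, counting only probe sets with exactly 1 symbol. They numbered 42 of the 18193 genes on the array and were read by 82 probe sets, each probe set being a group of short probes summarised as 1 value. Each gene was represented by the probe set whose mean of the 2 arrays was highest. The Yap+/- mice were heterozygous for a Yap mutation, and the Yap+/+ mice were wild type. Mice of both genotypes were on a C57BL/6 background after at least 6 generations of breeding, were untreated, and were killed on postnatal day 30. Livers of 5 mice per genotype were pooled, so a genotype is a single sample, and no replicate, error or test of a genotype difference exists for any value below. The sources used here do not give the sex of the mice or the part of Yap that the allele disrupts.

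Collagens are secreted proteins in which chains wind around each other in a rope-like helix built on repeated glycine residues. Fibrillar collagens such as types I, III and V form the tensile fibres of portal tracts and vessel walls and accumulate in scarred liver, where hepatic stellate cells and portal fibroblasts are the chief producers. Type IV collagen forms the sheet of basement membranes under vessels and bile ducts, and the remaining types link fibrils, form fine filaments or stay in the cell membrane. YAP, the product of Yap1, is the co-activator that Hippo kinases hold in check, and it acts through TEAD transcription factors, and matrix genes are among those it is known to regulate.

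The deposited values are on a log2 scale. A gene was called measured where its mean log2 value over both arrays was at least 6. Of the 42 collagen genes 18 were measured, and these 18 read above 6 on both arrays. The measured member nearest to that level, Col25a1, had a mean of 6.44, and the nearest of the 24 members under it, Col12a1, had a mean of 5.70. Differences are given as Yap+/- minus Yap+/+ on the log2 scale. Over the 9299 measured genes of the table the differences had a median of 0 and a robust SD of 0.15, and 90% of them lay between -0.27 and 0.28. Where a gene had a second measured probe set, as 3406 genes did, its difference departed from that of the first with a robust SD of 0.17. Both spreads describe this pair of arrays and say nothing of the spread between mice or pools. Yap1 itself read 9.24 in Yap+/-, against 9.40 in Yap+/+ on its brighter probe set, and 5.77 in Yap+/-, against 6.01 in Yap+/+ on the other. These Yap1 differences were -0.15 and -0.24, and the one on the brighter probe set was smaller than the 0.17 between probe sets. In 3 control transcripts the signal at the 3-prime end exceeded that at the 5-prime end by more in the Yap+/- pool than in the Yap+/+ pool, by 0.20 to 0.22 on the log2 scale. The part of this end-to-end signal difference in the collagen values was not tested.

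Collagen expression was nearly the same in both pools, as was that of most measured genes, and only a few chains stood away from 0. At a size of 2-fold, 0 of the 18 measured collagen genes were higher in Yap+/- and 0 were lower, where 0.0968% of all measured genes were at least 2-fold higher and 0.226% at least 2-fold lower. Given these shares, a count of 0 among 18 genes is not a result about collagens. At 1.5-fold, 1 of the 18 was lower, Col4a5, and 0 were higher, against 0.645% lower and 0.699% higher among all measured genes. In 15 of the 18 the difference was under 1.2-fold, and in 11 it was no larger than the disagreement of 0.17 between probe sets of the same gene. The 7 beyond that disagreement were Col4a5, Col5a3, Col16a1 and Col25a1 on the lower side and Col4a2, Col6a3 and Col14a1 on the higher side. Only Col4a5, Col5a3 and Col6a3 lay outside the range that holds 90% of measured genes. In all, 10 measured members were higher and 8 lower, which is 44.4% lower beside 49.6% of measured genes. Their median difference was 0.03, beside 0 over all measured genes. Counting every member at any level, 16 were higher, 22 lower and 4 equal, with a median of -0.01, beside 48.8% lower over all genes at any level.

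**Figure D1:**
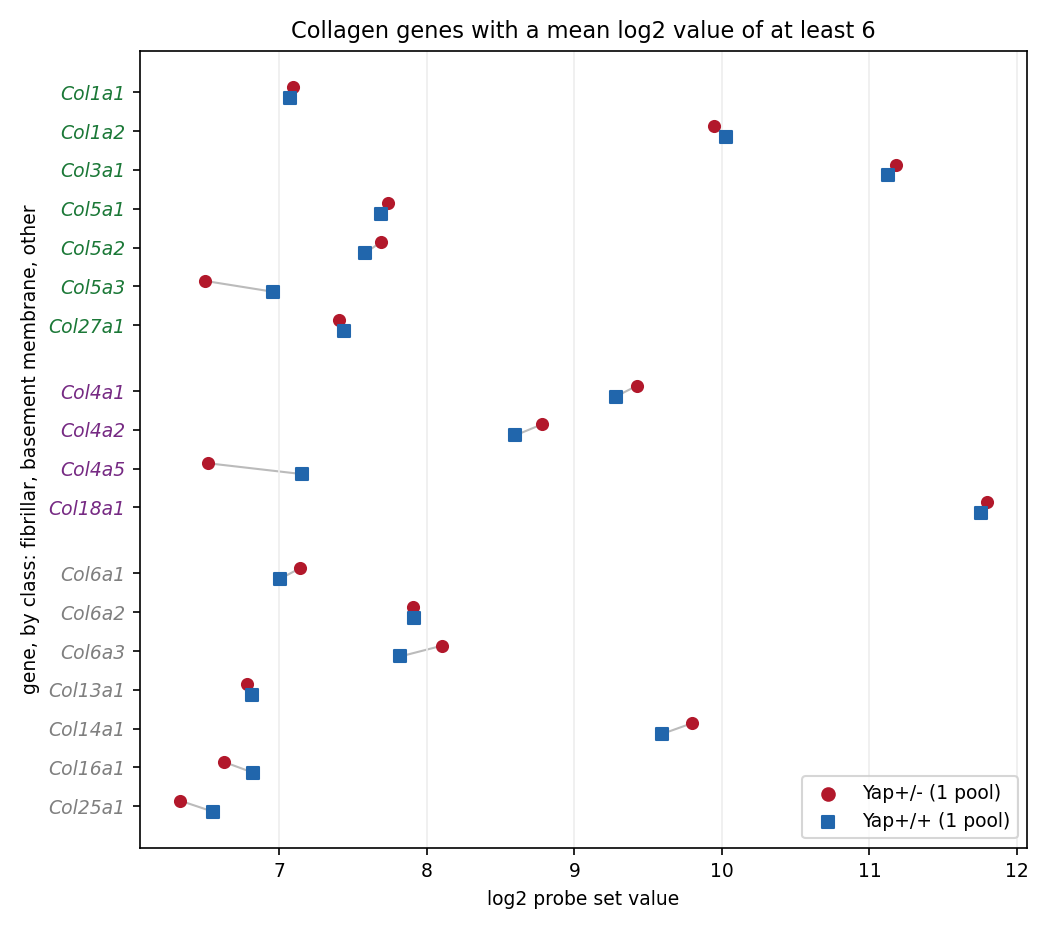
Log2 probe set value (x axis) of the 18 measured collagen genes (y axis, by class) in the Yap+/- pool (red circles) and the Yap+/+ pool (blue squares), 1 array each, with no error. The symbols nearly coincide for most genes and are furthest apart for Col4a5, at 6.52 in Yap+/-, against 7.16 in Yap+/+. Levels of different genes cannot be compared, because probe sets differ in brightness.

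Fibrillar collagens as a class did not differ in a common direction. Of 11 fibrillar genes 7 were measured, 4 of them higher and 3 lower, with a median difference of 0.03. The chains of type I collagen, the main fibre of scar and tendon, read almost alike. Col1a1 read 7.10 in Yap+/-, against 7.07 in Yap+/+, and its second probe set 5.83 in Yap+/-, against 5.81 in Yap+/+. Col1a2, which encodes the partner chain, read 9.95 in Yap+/-, against 10.03 in Yap+/+, and its second probe set differed by -0.07. The Col1a1 and Col1a2 differences, at 0.03 and -0.08, were each under the disagreement between probe sets. Col3a1, the chain of the fine reticular fibres of liver, read 11.18 in Yap+/-, against 11.12 in Yap+/+, with its second measured probe set at 7.38 in Yap+/-, against 7.28 in Yap+/+.

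Type V collagen starts and limits the growth of type I fibrils, and its chains differed among themselves. Col5a1 read 7.74 in Yap+/-, against 7.69 in Yap+/+, and Col5a2 read 7.69 in Yap+/-, against 7.58 in Yap+/+. The other probe sets of Col5a1, with differences of 0.10 and 0.13, and of Col5a2, with 0.16, were also on the higher side. Col5a3, a chain with a narrower distribution, went the other way, at 6.50 in Yap+/-, against 6.96 in Yap+/+. It was 1.38-fold lower, a difference of -0.46 whose size exceeded that of 97.4% of measured genes. Its only other probe set, near the lowest values of the table, read 3.11 in Yap+/-, against 3.15 in Yap+/+ and bears little on this difference. Col27a1, a fibrillar chain of cartilage and developing tissues, read 7.41 in Yap+/-, against 7.44 in Yap+/+. The fibrillar genes that were not measured, Col2a1, Col11a1, Col11a2 and Col24a1, read between 3.20 and 4.68 in Yap+/- and between 3.11 and 4.84 in Yap+/+. Col2a1 and both type XI chains are collagens of cartilage.

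**Figure D2:**
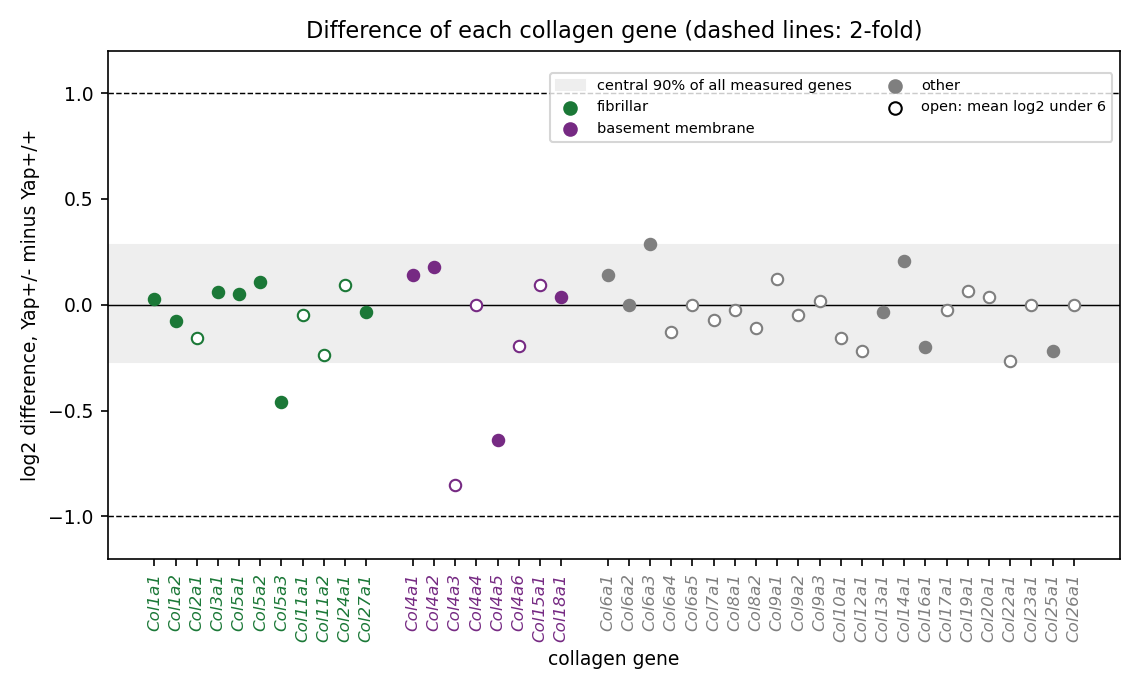
Log2 difference, Yap+/- minus Yap+/+ (y axis), of each of the 42 collagen genes (x axis) by class, with filled symbols for measured genes, open symbols for genes with a mean under 6, and a grey band for the central 90% of all measured genes. The dashed lines mark 2-fold, which no member reaches. Col4a5, Col5a3 and Col6a3 are the filled symbols outside the band, and Col4a3 is the lowest open one at -0.85.

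Basement membrane collagens divided by chain. Of 8 genes 4 were measured, 3 higher and 1 lower, and their median difference was 0.09. Col4a1 and Col4a2 encode the chains of the type IV network found in nearly all basement membranes, and both were slightly higher. Col4a1 read 9.42 in Yap+/-, against 9.28 in Yap+/+ on its brighter probe set, and 7.83 in Yap+/-, against 7.66 in Yap+/+ on the other. Col4a2, with a single probe set, read 8.78 in Yap+/-, against 8.60 in Yap+/+. Their differences were 0.14 and 0.18, or 1.10-fold and 1.13-fold, and all 3 probe sets of this pair were higher. Differences of this size are common here, since those of Col4a1 and Col4a2 exceeded 65.8% and 75.0% of measured genes.

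The type IV chains of narrower distribution were lower or equal on their representing probe sets: Col4a3, Col4a5 and Col4a6 were lower and Col4a4 was equal. The products of Col4a3, Col4a4 and Col4a5 assemble together in basement membranes such as that of the kidney filter, and those of Col4a5 and Col4a6 assemble together in others, including around smooth muscle. Col4a5 read 6.52 in Yap+/-, against 7.16 in Yap+/+. It was 1.56-fold lower, and the size of this difference, -0.64, exceeded that of 99.0% of measured genes. Its second probe set, under the level taken as measured, read 4.80 in Yap+/-, against 4.85 in Yap+/+, so the larger difference rests on 1 of 2 probe sets. Col4a3, which was not measured, read 4.79 in Yap+/-, against 5.64 in Yap+/+, and its other probe set 3.88 in Yap+/-, against 4.42 in Yap+/+. Its nominal 1.80-fold difference is not exact, because the Yap+/- value is below 4.92, the median of that whole array, where signal and background were not told apart.

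Col4a4 read 4.86 on both arrays on its brightest probe set, and on the other probe sets 4.13 and 3.70 in Yap+/- and 4.48 and 4.03 in Yap+/+. Col4a6 gave 4.80 and 4.39 on its probe sets in Yap+/-, against 5.00 and 4.57 in Yap+/+. Over the 4 genes Col4a3 to Col4a6, 8 of 9 probe sets were lower in Yap+/- and 1 was equal, where 48.8% of all probe sets with 1 symbol were lower. This grouping follows the assembly of the chains but was made after the values were seen, and 8 of the 9 probe sets had a mean under 6. Probe sets of a gene read the same RNA on the same 2 arrays, so the 9 are not independent of each other. The count therefore gives no support for a shared change of these genes. At 1.5-fold, 2 of the 42 members at any level were lower, Col4a3 and Col4a5, beside 0.621% of all genes at any level.

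**Figure D3:**
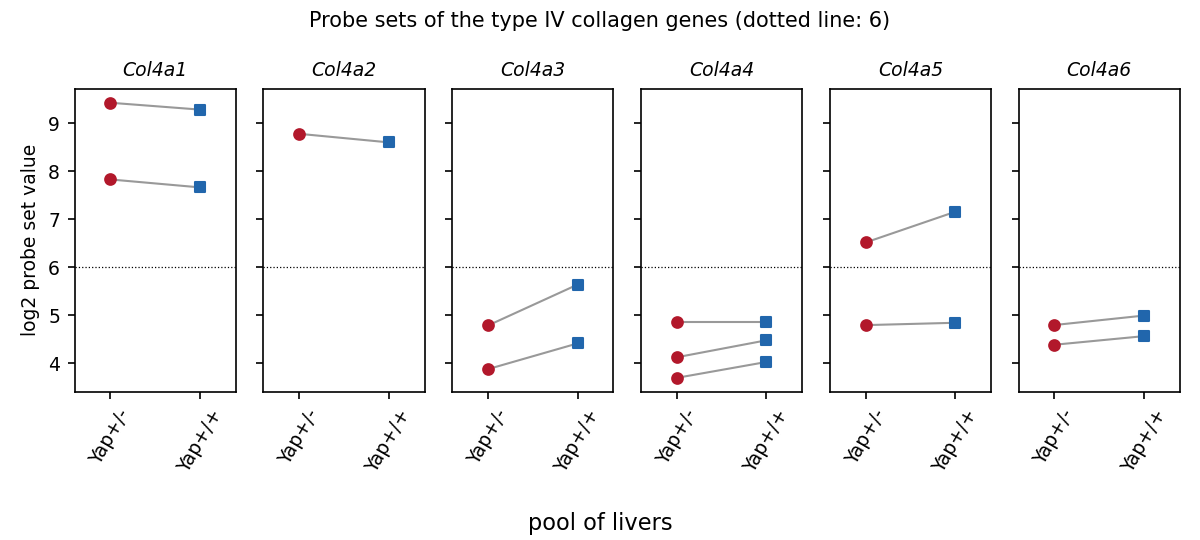
Log2 value (y axis) of every probe set of the 6 type IV collagen genes, with the Yap+/- pool on the left (red circles) and the Yap+/+ pool on the right (blue squares) of each panel, 1 array each, joined by a line per probe set. Lines of Col4a1 and Col4a2 go down to the right, and those of Col4a3, Col4a5 and Col4a6 go up, as do those of Col4a4 except 1 that is level. The dotted line is the minimum mean of 6.

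The type XV and XVIII collagens belong to the zone between basement membrane and stroma. Col18a1, the precursor of the angiogenesis inhibitor endostatin and strongly expressed by hepatocytes, read 11.79 in Yap+/-, against 11.76 in Yap+/+. Its second probe set read 11.48 in Yap+/-, against 11.53 in Yap+/+, so its probe sets differed in sign and neither by more than 0.05. Col15a1 was not measured, at 5.17 in Yap+/-, against 5.07 in Yap+/+.

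Among the other collagens the measured genes went both ways. Of 23 genes 7 were measured, 3 higher and 4 lower, with a median difference of -0.002. Type VI collagen forms beaded filaments around cells. Its chain Col6a3 read 8.11 in Yap+/-, against 7.82 in Yap+/+, the largest difference on the higher side among measured collagens, at 0.29 or 1.22-fold, on its only probe set. Col6a1 read 7.14 in Yap+/-, against 7.01 in Yap+/+. Col6a2 read 7.91 on both arrays, while its second probe set read 7.63 in Yap+/-, against 7.47 in Yap+/+, so its direction depended on the probe set. Col6a4 and Col6a5 read at most 3.91 in Yap+/-, against 4.04 in Yap+/+.

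Fibril-associated collagens sit on the surface of fibrils. Col14a1 read 9.80 in Yap+/-, against 9.59 in Yap+/+, 1.15-fold higher, and its second measured probe set read 7.88 in Yap+/-, against 7.77 in Yap+/+. A further probe set, far under the minimum, read 3.75 in Yap+/-, against 3.26 in Yap+/+. Col16a1 read 6.63 in Yap+/-, against 6.83 in Yap+/+, 1.15-fold lower on its only probe set. The other 7 genes of this group, Col9a1, Col9a2, Col9a3, Col12a1, Col19a1, Col20a1 and Col22a1, were not measured, with differences from -0.27 to 0.12. Of the transmembrane collagens, Col13a1 read 6.78 in Yap+/-, against 6.81 in Yap+/+. Col25a1, known from nerve and muscle, read 6.33 in Yap+/-, against 6.55 in Yap+/+, but its second probe set, at 3.46 in Yap+/-, against 3.30 in Yap+/+, differed in the other direction near background. Col17a1 and Col23a1, the network collagens Col8a1, Col8a2 and Col10a1, the anchoring fibril gene Col7a1 and Col26a1 were not measured, and among these 7 genes the difference was between -0.16 and 0.

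The classes overlapped. The measured fibrillar genes ranged from -0.46 to 0.11, the basement membrane genes from -0.64 to 0.18 and the other genes from -0.22 to 0.29. With 1 pool per genotype a difference between classes could not be tested. Where a collagen had a second measured probe set, as 8 did, the sign was the same on both in 6, the exceptions being Col18a1 and Col6a2, and the probe sets differed by at most 0.17. Over all genes with a second measured probe set, 60.1% had the same sign on both. In bulk liver, fewer cells of a type and less RNA per cell cannot be told apart.

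Promoter windows of 250 bases before the start site, from the RefSeq promoter table of build GRCm38.p6, were matched for 33 of the 42 collagen genes. Those not matched were Col1a1, Col2a1, Col4a3, Col5a2, Col9a3, Col12a1, Col14a1, Col22a1 and Col26a1. The type IV genes lie next to each other in head-to-head pairs on chromosomes 8, 1 and X. In the table the start sites of Col4a1 and Col4a2, on opposite strands, are 21 bases apart, and those of Col4a5 and Col4a6 are 1343 bases apart. The windows below are those of the measured collagens with the largest differences, Col4a5, Col5a3 and Col6a3, of Col4a6 as the neighbour of Col4a5, and of Col3a1 as a fibrillar gene whose window holds a TEAD core. Capitals mark matches on either strand to the TEAD core GGAATG, the CCAAT box CCAAT and the GC box GGGCGG.
Col4a5, chrX:141475169-141475418, plus strand: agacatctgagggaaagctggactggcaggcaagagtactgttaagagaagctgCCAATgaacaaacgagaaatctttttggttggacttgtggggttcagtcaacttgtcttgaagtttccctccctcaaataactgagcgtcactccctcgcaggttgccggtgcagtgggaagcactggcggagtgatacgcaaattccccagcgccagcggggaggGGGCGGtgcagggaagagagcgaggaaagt
Col4a6, chrX:141474077-141474326, minus strand: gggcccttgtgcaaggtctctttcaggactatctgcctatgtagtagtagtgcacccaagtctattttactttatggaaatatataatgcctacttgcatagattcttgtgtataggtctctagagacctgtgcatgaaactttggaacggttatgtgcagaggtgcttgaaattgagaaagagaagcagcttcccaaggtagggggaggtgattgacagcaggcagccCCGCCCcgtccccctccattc
Col5a3, chr9:20815068-20815317, minus strand: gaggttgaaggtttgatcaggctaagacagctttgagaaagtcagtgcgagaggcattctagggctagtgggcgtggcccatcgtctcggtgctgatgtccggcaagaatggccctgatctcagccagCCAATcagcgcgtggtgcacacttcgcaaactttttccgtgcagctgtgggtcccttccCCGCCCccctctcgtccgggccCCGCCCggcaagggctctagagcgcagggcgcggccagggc
Col6a3, chr1:90843972-90844221, minus strand: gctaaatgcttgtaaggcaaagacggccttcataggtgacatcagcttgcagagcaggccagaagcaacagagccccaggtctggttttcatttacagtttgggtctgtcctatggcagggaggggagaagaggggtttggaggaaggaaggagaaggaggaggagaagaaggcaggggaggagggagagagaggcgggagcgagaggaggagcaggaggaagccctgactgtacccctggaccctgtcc
Col3a1, chr1:45311288-45311537, plus strand: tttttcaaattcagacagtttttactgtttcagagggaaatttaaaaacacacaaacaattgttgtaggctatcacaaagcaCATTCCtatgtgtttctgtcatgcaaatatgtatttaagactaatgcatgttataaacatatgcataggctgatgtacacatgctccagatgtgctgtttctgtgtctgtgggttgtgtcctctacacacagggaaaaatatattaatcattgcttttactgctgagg

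The TEAD core was found in 11.1% of the 36 collagen windows, since a gene can have more than 1, and in 12.6% of all 32851 windows in the table. Of the 15 measured collagens with a window, it was in those of Col18a1, Col3a1 and Col6a2, while Col1a1, Col5a2 and Col14a1 had no window to search. The windows of Col4a5 and Col5a3 hold 1 CCAAT box each, with 1 and 2 GC boxes, and that of Col6a3 holds none of the motifs. CCAAT boxes were in 36.1% of collagen windows and 33.8% of all windows, and GC boxes in 58.3% and 32.7%. The motifs did not overlap in the windows printed. A match is only a match of letters within these windows.

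The genes that make, fold and crosslink collagen were not shifted as a group. Beside the counts of this list and of those that follow, 48.8% of all measured genes were higher in Yap+/- and 49.6% lower. Of 15 measured genes of synthesis and crosslinking, 7 were higher, 7 lower and 1 equal, 0 of them by 2-fold, with a median difference of 0. P4ha1, a catalytic subunit of the prolyl hydroxylase that stabilises the helix, read 6.91 in Yap+/-, against 6.30 in Yap+/+ and was the only one past 1.5-fold, at 1.52-fold higher. The peptidyl-prolyl isomerase Ppib differed by 0.30 and the collagen chaperone Serpinh1 by 0.28. On the lower side, the alternative subunit P4ha2, at 5.94 in Yap+/-, differed by -0.25, the prolyl hydroxylase P3h1 by -0.12 and the glycosyltransferase Colgalt1 by -0.08. Among 9 measured genes of collagen breakdown, 6 were higher and 3 lower, and their median difference was 0.05. The gelatinase Mmp2 read 7.04 in Yap+/-, against 6.70 in Yap+/+, its membrane-bound activator Mmp14 differed by 0.24 and the protease inhibitor Reck by 0.22, while Timp2, an inhibitor of these proteases, differed by -0.25, Mmp19 by -0.10 and Ctsl by -0.02.

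Of 5 measured collagen receptors, 4 were higher, with a median of 0.06. Cd44 differed by 0.37, the integrin chain Itga1 by 0.20 and the collagen-binding kinase Ddr2 by 0.06, whereas Itgb1, the common integrin beta chain, was lower by -0.28. Basement membrane partners had 5 higher and 6 lower of 11, with a median of -0.07. The laminin chain genes Lama4 and Lama5 differed by 0.23 and 0.14 and the peroxidase Pxdn, which crosslinks type IV collagen, by 0.13, while Tinagl1 differed by -0.24, Lama2 by -0.21 and Lamc1 by -0.12. Of 12 measured fibril partners and other matrix genes 9 were lower, and the median was -0.08, with Sparcl1 at -0.48, Efemp1 at -0.31 and Tnxb at -0.24, and with Eln, elastin, at 0.15, Fn1, fibronectin, at 0.03 and Ecm1 at 0.0027. Of the 16 measured TGF-beta pathway genes, 9 were higher, and the median difference was 0.02. The furthest on that side were Ltbp3 at 0.27, Ski at 0.22 and Skil at 0.18. On the lower side were Ccn2 at -0.45, Tgfbr3 at -0.34 and Smad6 at -0.25. None of these related genes differed by 2-fold.

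**Figure D4:**
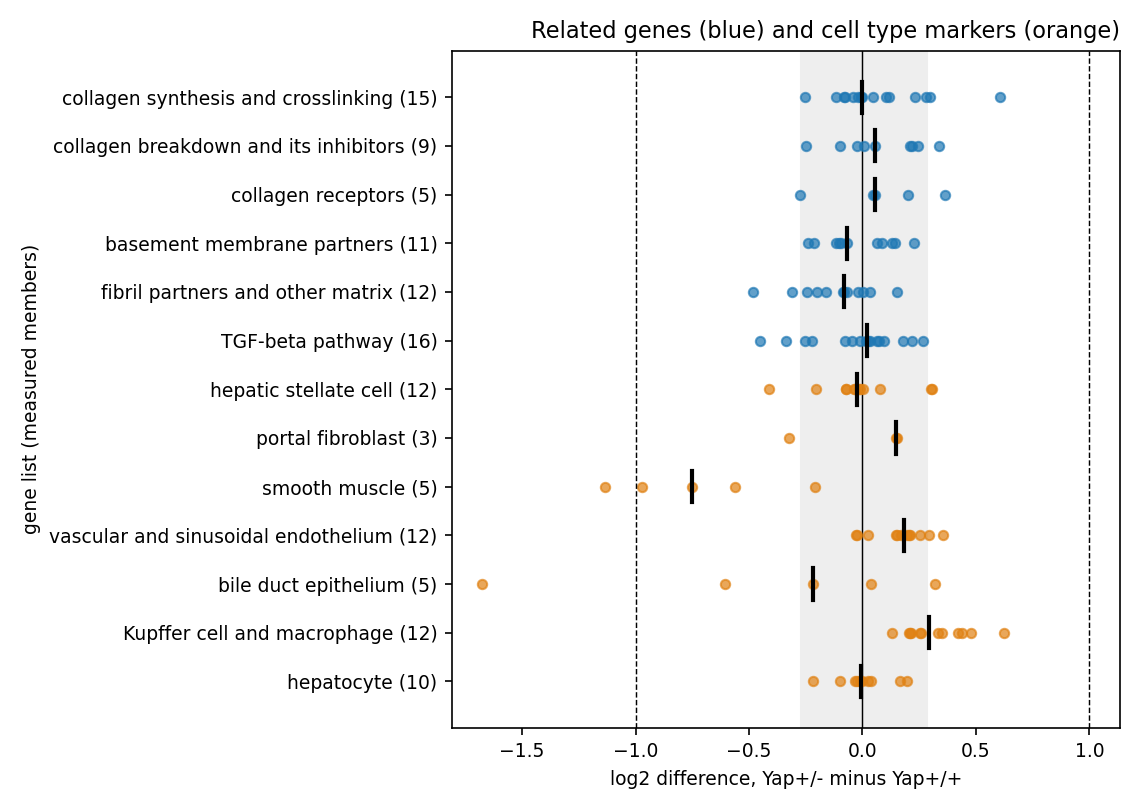
Log2 difference, Yap+/- minus Yap+/+ (x axis), of each measured member of the lists of related genes (blue) and cell type markers (orange), with the number measured in brackets, a black tick at the list median, and a grey band for the central 90% of measured genes. Dashed lines mark 2-fold. Smooth muscle markers lie to the left of 0 and Kupffer cell markers to the right, while the lists of related genes straddle 0.

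Markers of the cell types that a liver sample can hold are given beside these values. Of the 10 smooth muscle markers at any level, 9 were lower in Yap+/- and 1 was higher, with a median of -0.66 and a summed linear level of 1428 in Yap+/- and 2109 in Yap+/+. The 5 that were measured were lower, with a median of -0.75, although Myh11, at 5.89 in Yap+/-, against 6.46 in Yap+/+, passed the minimum only through the Yap+/+ pool. Acta2 read 7.92 in Yap+/-, against 9.05 in Yap+/+, Myl9 6.72 in Yap+/-, against 7.69 in Yap+/+, and Tagln 7.13 in Yap+/-, against 7.88 in Yap+/+, while Cnn1, Actg2, Smtn, Lmod1 and Synpo2 were not measured. Bile duct markers went both ways, but more of them were lower. Of 12 listed, 5 were measured, 3 lower and 2 higher, with a median of -0.22. The sum of these 5 was larger in the Yap+/- pool, 4373 in Yap+/- and 4267 in Yap+/+. The brightest members, Tm4sf4 at 11.33 and Cdh1 at 10.32 in Yap+/-, weigh most in that sum. At any level, 7 read lower in Yap+/- against 3 that read higher, and the median difference was -0.15. Muc1 read 5.51 in Yap+/-, against 7.19 in Yap+/+, and so passed the minimum only through the Yap+/+ pool, and its difference is not exact. Onecut1 was lower by -0.60 and Prom1 by -0.22, Cdh1 was higher by 0.32 and Tm4sf4 by 0.04, and Krt19, Krt7, Epcam, Sox9 and Cftr were not measured. Krt19 read 4.83 in Yap+/-, against 6.73 in Yap+/+, so it was above 6 only in the Yap+/+ pool, and its difference is not exact. The smooth muscle markers were lower in the same pool as Col4a5, Col4a3 and Col5a3, and their part in these differences was not tested.

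Endothelial markers were higher in Yap+/- in 10 of 12 measured genes, with a median of 0.18 and sums of 6294 in Yap+/- and 5434 in Yap+/+. Fcgr2b differed by 0.36, Clec4g by 0.29 and Vwf by 0.25, while Tek and Kdr each differed by -0.03, and Pecam1, Emcn and Tie1 were not measured. The pool with higher endothelial markers was also the one with higher Col4a1 and Col4a2, and the part of these cells in that difference was not tested. Hepatic stellate cell markers did not run one way, with 4 higher and 8 lower of 12, a median of -0.02 and sums of 5831 in Yap+/- and 5569 in Yap+/+. The pericyte receptor Pdgfrb differed by 0.31, Rgs5 by 0.30 and Colec11 by 0.08, whereas desmin, Des, differed by -0.41, Bmp5 by -0.20 and the vitamin A esterifying enzyme Lrat by -0.07, and Hgf was not measured. Of 10 portal fibroblast markers only Gas6, Entpd2 and Eln were measured, at -0.32, 0.15 and 0.15, with a median of 0.15 and sums of 603 in Yap+/- and 654 in Yap+/+. At any level 4 were higher and 6 lower, and the median difference was -0.05. The markers Thy1, Fbln2, Msln, Gli1, Cd34, Slit2 and Clec3b were not measured.

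Kupffer cell and macrophage markers were higher in all 12 measured genes, with a median of 0.29 and sums of 12640 in Yap+/- and 10074 in Yap+/+, led by Marco at 0.62, Cd68 at 0.48 and Cd5l at 0.44. The hepatocyte markers, which check the labelled tissue, were measured in all 10 genes, with a median of -0.005 and Alb at 15.09 on both arrays. Tat and Tdo2 differed by -0.22 and -0.10, and Hnf4a and Pck1 by 0.20 and 0.17. Of the mesothelial markers 0 of 7 were measured. Of the exocrine pancreas markers 1 was measured, Cela1 at 0.04. At any level 3 of them were higher and 3 lower, with sums of 890 in Yap+/- and 964 in Yap+/+. Ctrb1 read 5.13 in Yap+/-, against 6.41 in Yap+/+, and Reg1 4.05 in Yap+/-, against 5.82 in Yap+/+. Neither was measured, so their differences are not exact. Of the bone and cartilage markers 1 was measured, Sox5 at -0.22, and at any level 1 was higher and 6 lower.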

How the data were processed

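Livers of Yap+/- and Yap+/+ mice were pooled by genotype, and RNA of each pool was biotin-labelled from the 3-prime end and read on 1 array, per the labels' protocols. The deposited log2 values were made by the authors with RMA and Partek 6.5, per the submitters' processing notes, with no settings given in the sources used here. The sorted columns lay within 0.047 of each other, the mark of quantile normalisation, which largely removes any difference in overall RNA amount. The table held 45101 probe sets, of which 34945 had 1 symbol in the platform annotation; no probe set with several symbols named a collagen. Scanner files and detection calls were not used here, and the number of arrays limits the precision.

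From these values the difference between arrays, counts past 2-fold and 1.5-fold, and medians were computed with pandas 2.3.3 and numpy 2.4.6 under Python 3.11.15, with lowess from statsmodels 0.14.6 and figures by matplotlib 3.10.9, after a check of the counting on simulated data. No test was possible with 1 array per group. The members, classes and lists were chosen with earlier results of these data known. Named were all collagens and, per list, up to 3 measured members with the largest difference in each direction. Values of Krt19, Ctrb1 and Reg1 are also given, although these genes were not measured. Marker and pathway genes were matched by current or older symbol. Alternatives were other minimum levels, other probe set rules, centring, lowess, 64 added on the linear scale, 1.5-fold and 3-fold, no largest member and other class borders.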

Additional observations from a re-analysis of the deposited data

How the results depend on the processing

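The count of measured collagen genes past 2-fold was 0 under every minimum level, probe set rule and scaling tried and at 3-fold, and it was 1 at 1.5-fold. At 3-fold, at a minimum of 7 and with 64 added it could not have been other than 0, so these settings are no check of it. The count of genes lower in Yap+/-, 8 of 18, was 22 of 42 with no minimum, 3 of 13 at a minimum of 7, 5 of 15 with the mean of all probe sets and 3 of 8 with the second brightest probe set, where fewer or more genes entered. The collagen median of 0.03 was 0.10 with the second brightest probe set and -0.01 with no minimum, and the fibrillar median of 0.03 was -0.03 with no minimum. The basement membrane median kept its positive sign in each setting, at 0.02 with no minimum. Its sign depended on the summary, since the mean difference of the 4 measured genes was -0.07. The median of the 6 type IV genes at any level was -0.10. The median of the other collagens, -0.002, was 0.17 at a minimum of 7, 0.11 with the mean of all probe sets or with probe sets without a suffix, 0.01 with centred arrays and 0.001 with the lowess trend removed, so its sign is not settled. The Col4a5 difference was -0.34 with the mean of all probe sets and -0.41 with 64 added, and the Col5a3 difference was -0.25 and -0.29. Centring or lowess changed the sign of 1 of 18 genes, Col6a2. The probe set rules changed more signs, in 2 of 18 genes with the mean of all probe sets and 3 of 13 with the second brightest probe set. With probe sets without a suffix, 1 of 16 changed sign. Because probe sets near background were compared with no detection call, folds of genes under the minimum are not exact. No paired analysis was possible because each genotype has 1 array.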

Other observations

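A list of proteins, most of which carry a collagen-like domain without being collagens, was drawn up after values of these data had been seen. Most are proteins of innate defence, but the list also holds C1qtnf genes and Adipoq. Of the 25 listed genes 13 were measured, and 12 of these were higher in Yap+/-, 0 by 2-fold, where 48.8% of all measured genes were higher. Their median difference of 0.08 was under the disagreement of 0.17 between probe sets of the same gene. At any level 15 were higher and 8 lower. The scavenger receptor Marco read 7.92 in Yap+/- and 7.30 in Yap+/+. The complement chains C1qa, C1qb and C1qc differed by 0.25, 0.26 and 0.33. These 4 genes are also among the macrophage markers, all of which were higher in the same pool. Msr1 and Fcna, also known from macrophages, each differed by 0.02. Of the soluble lectins, Mbl1, Mbl2 and Colec11 were each at 0.08 and Colec10 at 0.19. C1qtnf1 and C1qtnf12, counted among the 12 that were higher, differed by 0.10 and 0.08. The measured member on the lower side was Colec12 at -0.05.

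A total of 5 collagen probe sets, of Col20a1, Col23a1, Col26a1, Col4a4 and Col6a5, had the same deposited value on both arrays to every digit, at levels from 3.00 to 4.96. Over all probe sets 2136 did, or 4.74%, with 6.44% among those under a mean of 6 and 1.69% among those at or above it. For such probe sets a difference of 0 is a property of the deposited values and does not show how closely the pools agree.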
